A study of Gallus gallus with 300 samples.

Results

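The cells described here are the supporting cells of the chicken utricle, divided by whether they contained RNA of ALDH1A3. A cell was kept when it had at least 1000 detected genes and a total of at least 50000 counts. It was called a supporting cell when its mean log2(CPM + 1) over the supporting cell genes GJB6, GJB2, SLC1A3, OTOGL and JAG1 was at or above that over the hair cell genes OTOF, CHRNA10, TMPRSS3, LRTOMT and CLIC5, where CPM are counts scaled to a total of 1000000 per cell. Of 300 cells 24 were removed by these limits, and 94 of the remainder were supporting cells. The members were thus selected on measured values, those of the 10 genes of the score and of ALDH1A3 itself. ALDH1A3 was at 10 CPM or more in 57 of the 94, called positive here, and below 10 CPM in the other 37, called negative.

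The utricle is a balance organ of the inner ear. Its sensory epithelium holds hair cells, which respond to movement of the overlying otolithic membrane, and supporting cells, which surround the hair cells, make that membrane and in birds give rise to replacement hair cells throughout life. ALDH1A3 is a retinaldehyde dehydrogenase: it turns retinaldehyde, made from vitamin A taken up through receptors such as STRA6, into retinoic acid, which binds nuclear receptors and is broken down by CYP26 enzymes. In the maculae of the mouse, retinoic acid synthesis in outer regions and its breakdown in a central band, the striola, are known to pattern the epithelium.

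The samples were wild-type chickens at posthatch day 7, and all cells shared this genotype, age and tissue with no treatment. Per the labels' protocols, several utricle epithelia were pooled in each experiment, peeled from the stroma after thermolysin, dissociated and sorted as single viable cells into well plates, and RNA was copied and amplified by the Smart-Seq2 method. The labels give the well plate of each cell, from plate 2 to plate 6, but not the animal. No label ties a side to particular animals, so each side counts as 1 sample, no test between the sides was possible and no p-value is given. Differences are described by their size, by the spread over the 5 plates and by the share of cells with the RNA. Totals ranged from 62846 to 1234012 counts in the deposited cells, and the median supporting cell had 298510 counts on the positive side and 340651 on the negative side. A plate is a set of wells, not an animal, so the spread over plates is not the spread between birds.

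ALDH1A3 was nearly all-or-none in these cells. In the 57 positive cells the lowest value was 10.05 CPM, the median 890.4 CPM and the highest 7564 CPM, with quartiles at 479 and 1633 CPM. Of these cells 53 reached 100 CPM and 25 reached 1000 CPM. On the negative side 35 of 37 cells had 0 counts. These values chose the sides and are given as a description only. Just above the boundary lay cells at 10.05, 13.6, 17.3 and 95.5 CPM, and just below it cells at 4.51 and 1.94 CPM, so 6 cells of 94 lay between 1 and 100 CPM. The mean over positive cells was 2239 CPM on plate 2, 715 CPM on plate 3, 1390.0 CPM on plate 4, 1780 CPM on plate 5 and 563 CPM on plate 6.

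Positive cells were 60.6% of supporting cells, with an exact binomial 95% interval of 50.02 to 70.6% that covers counting error only. They were 9 of 15 on plate 2, 9 of 12 on plate 3, 21 of 30 on plate 4, 13 of 22 on plate 5 and 5 of 15 on plate 6. The mean of the plate shares was 59.5% ± 16.1 (SD, n = 5 plates). The lowest share, 33.3% on plate 6, had an interval of 11.8 to 61.6%, which overlapped those of the other plates. Among cells with the higher hair cell score, ALDH1A3 reached 10 CPM in 10 (5.49%, exact interval 2.67 to 9.87%), although these cells had a median of 3469 detected genes against 1823.5 in supporting cells, and a median total of 432175.5 counts against 322279. The median of those 10 cells was 128.8 CPM, below the quartiles of the positive supporting cells, and the highest had 1316 CPM. Their supporting score minus hair cell score had a median of -4.94, against -7.58 over all cells with the higher hair cell score. Whether this is free RNA, mixed wells or expression in hair cells was not tested.

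**Figure D1:**
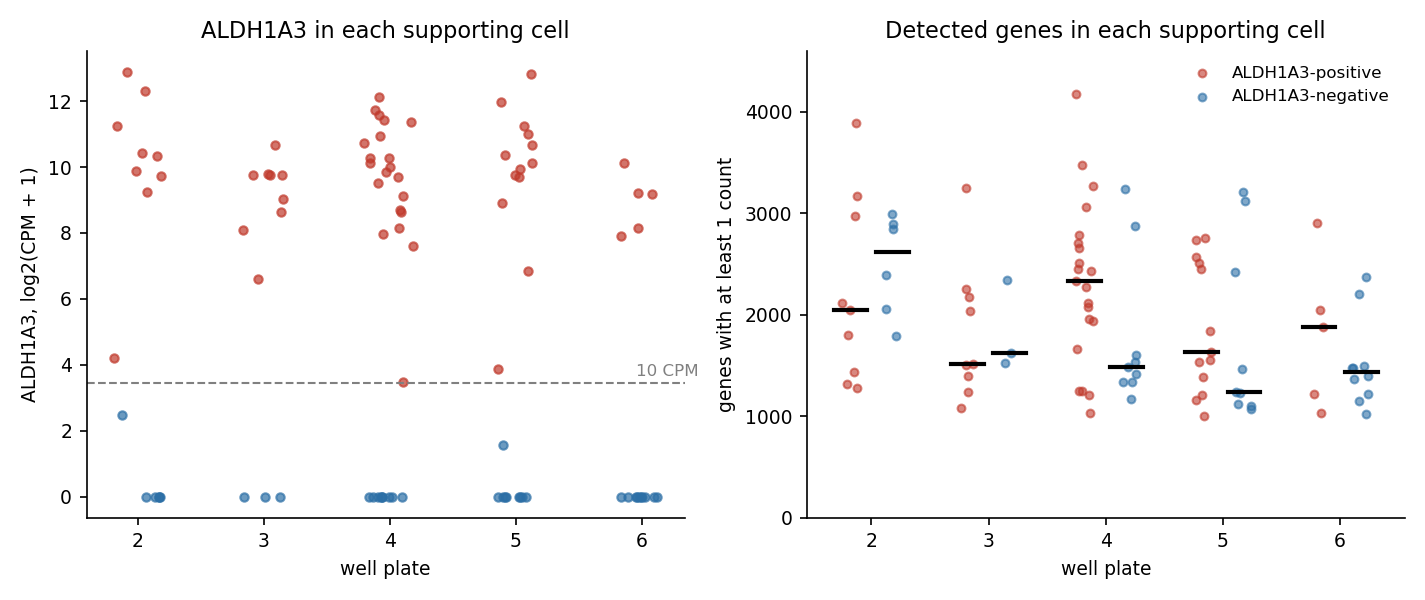
Each point is 1 supporting cell, placed by its well plate. The left panel plots ALDH1A3 as log2(CPM + 1) with the 10 CPM boundary dashed, and the right panel plots detected genes per cell with the median of each side and plate as a black bar; positive cells had the higher median on plates 4, 5 and 6 and negative cells on plates 2 and 3.

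Both sides carried the genes that made them supporting cells, at means less than 2-fold apart, but these genes were present in fewer of the negative cells. At the median of the 5 genes, 92.98% of positive and 75.7% of negative cells reached 10 CPM. The sum of the 5 ranged from 4727 to 48816 CPM over positive cells and from 17.7 to 69719 CPM over negative cells. The connexin GJB6, a gap junction subunit, averaged 22795 ± 1279.8 CPM over the plates on the positive side and 24039 ± 4258 CPM on the negative side (SD, n = 5 plates), and its partner GJB2 averaged 3998 ± 338 and 2957 ± 1099 CPM. The glutamate transporter SLC1A3 averaged 2596 and 2035 CPM, the otolithic membrane protein gene OTOGL 943 and 914 CPM, and the Notch ligand JAG1 939.5 and 1035 CPM. Since these genes chose the cells, they describe the sides and test nothing. The adhesion gene EPCAM, which the rule did not use, averaged 2516 CPM on the positive side and 2522 CPM on the negative side. Of the hair cell genes of the rule, CHRNA10 was at 0 in every supporting cell, while OTOF was at 10 CPM in 9 positive cells and 1 negative cell. The hair cell score was above 0 in 13 of 57 positive and 3 of 37 negative cells.

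There were 3 supporting cells that stood apart from the others, all of them negative, because their supporting score was less than 2 log2 units above their hair cell score. The lowest difference among positive cells was 4.96. A cell on plate 4 had a hair cell score of 6.15 beside a supporting score of 6.77, so both scores were high. A cell on plate 2 had GJB6 at 7.82 CPM with the myelin genes MBP at 19518 CPM and PMP22 at 8781 CPM. The remaining cell, on plate 4, had a supporting score of 1.37, a hair cell score of 0 and CD74 at 16363 CPM, the highest value of that immune gene in any supporting cell.

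Positive cells had more detected genes than negative cells over all plates, but not on every plate. The median was 2051 genes in positive cells (range 1007 to 4170) and 1493 in negative cells (range 1026 to 3242). On plate 4 the medians were 2329 and 1486, on plate 5 they were 1631 and 1243, and on plate 6 they were 1884 and 1436.5. On plates 2 and 3 the order was the other way, with 2051 against 2620 genes and 1515 against 1628. With each cell thinned to 50000 counts, 1841 and 1335 genes were detected at the median, so the difference was also present at equal depth. Over 7704 measured genes, a gene reached 10 CPM in 23.2% of positive cells and in 20.1% of negative cells on average, and 63.95% of the genes had the higher share on the positive side. That general difference stands beside every share below, and its part in any single gene was not tested.

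Few genes differed between the sides in a steady way. Genes were measured when they reached 10 CPM in at least 5 supporting cells. CPM were averaged over cells within each plate and then over the 5 plates, and the log2 ratio of positive over negative was taken after adding 1 CPM to each mean, so ratios of genes at low levels come out too small. A gene was counted as past 2-fold when this ratio was at least 1 in size, had the same sign on every plate and in the mean log2(CPM + 1), and the side with the higher mean had the gene at 10 CPM in 30% of its cells or more. Of 7704 genes other than ALDH1A3, 75 were past 2-fold and higher in positive cells (0.974%) and 26 were past 2-fold and lower (0.337%), 1.31% in either direction. The median log2 ratio of all measured genes was 0.08, with 4063 higher and 3641 lower in positive cells, and the splits of the gene lists below stand beside that. The plate means of the sides did not overlap at all for 53 genes that were higher (0.688%) and 16 that were lower (0.208%), and 17 and 4 of these were also past 2-fold. Without the 3 cells that stood apart, 61 of the 75 and 19 of the 26 genes were still past 2-fold. In a further check chosen after seeing the data, each gene was taken without the 1 cell of the higher side with its highest CPM, and 51 of the 75 and 16 of the 26 were still past 2-fold.

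**Figure D2:**
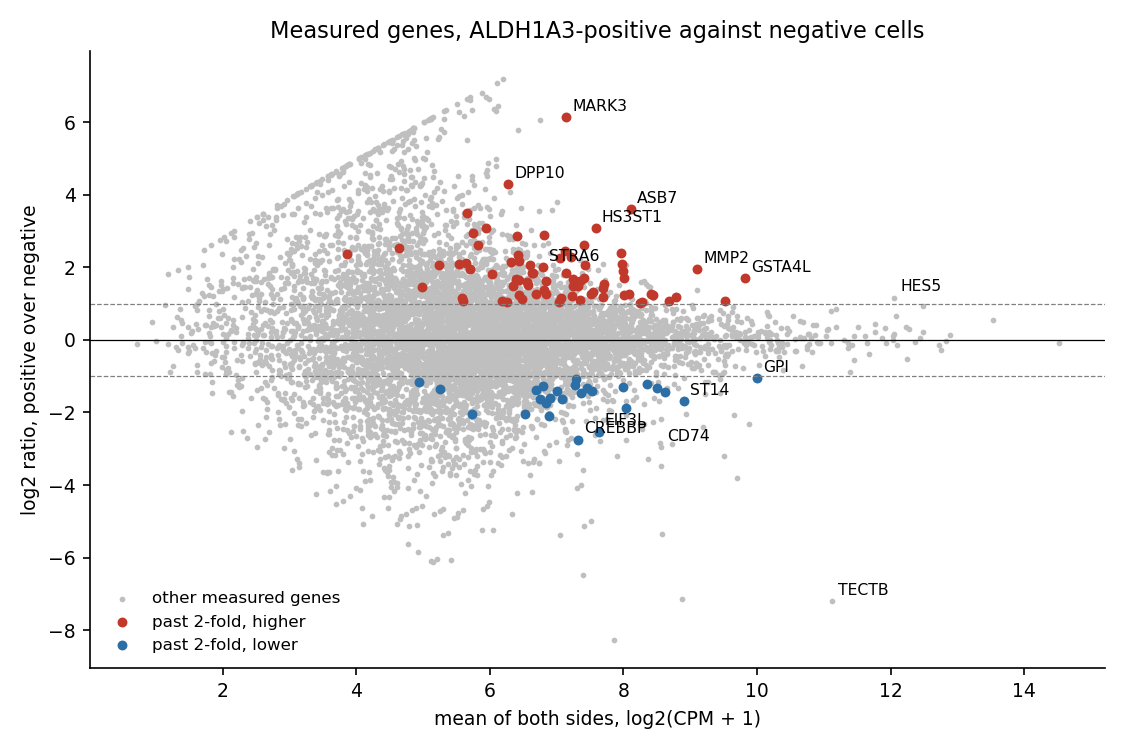
Each point is 1 of the 7704 measured genes, with its mean over both sides as log2(CPM + 1) on the horizontal axis and its log2 ratio of positive over negative cells on the vertical axis. Red points are the 75 genes past 2-fold and higher and blue points the 26 past 2-fold and lower; many grey points lie beyond the dashed 2-fold lines because they changed sign between plates or were present in few cells.

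Among genes of retinoic acid synthesis, STRA6, the membrane receptor that brings retinol into cells, was higher in ALDH1A3-positive cells. STRA6 reached 10 CPM in 30 of 57 positive cells (52.6%, exact interval 38.97 to 66.02%) and in 5 of 37 negative cells (13.5%, 4.54 to 28.8%). In positive cells its plate means were 191.9, 409, 82.8, 94.6 and 103.8 CPM on plates 2 to 6, and in negative cells they were 0, 177.9, 8.73, 13.4 and 16.4 CPM. The positive side was higher on each plate, although the negative mean of plate 3, which rests on 3 cells, exceeded 3 of the positive means. The log2 ratio was 2.00, with an SD of 2.43 over the plate ratios. STRA6 reached 10 CPM in only 3 of the cells with the higher hair cell score. Its log2 ratio was 1.99 without the 3 cells that stood apart, 1.59 after thinning, 3.97 among cells below the median gene number and 2.60 among cells at or above it. Here and below, values split by gene number used only the 2 plates with at least 3 such cells on both sides. These were plates 4 and 5 below the median and plates 2 and 5 at or above it, so the groups also differed by plate.

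The other genes of retinoid supply gave no further gene past 2-fold. Besides ALDH1A3, 6 of the 14 listed genes in the files were measured. Of these 4 had the higher mean and 2 the lower mean in positive cells. STRA6 alone was past 2-fold, beside 0.974% of all measured genes past 2-fold and higher. RBP5, a cellular retinol-binding protein, averaged 70.98 ± 25.8 CPM in positive and 67.3 ± 29.95 CPM in negative cells (SD, n = 5 plates), with 30 of 57 and 12 of 37 cells at 10 CPM. DHRS3, which reduces retinaldehyde back to retinol, had a log2 ratio of 2.91 but was present in 5 positive cells and 1 negative cell. The carotenoid-cleaving enzymes BCO1 and BCO2 had ratios of 0.43 and -0.16, and the retinol dehydrogenase RDH12 -0.12, each in at most 14.04% of the cells of a side. ALDH1A2, a related retinaldehyde dehydrogenase, reached 10 CPM in 1 positive and 1 negative cell.

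The listed genes that bind or break down retinoic acid, as far as they were in the files, were almost absent on both sides. None of these 6 genes was measured. The breakdown enzyme CYP26B1 had no row in the files, so its level is not known. The binding protein CRABP1 reached 10 CPM in 2 positive cells and 1 negative cell, and the breakdown enzymes CYP26A1 and CYP26C1 in 1 and 2 positive cells and in 0 negative cells. At such counts no difference between the sides was detectable.

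Nuclear receptors and their cofactors gave no gene past 2-fold. Of 6 measured genes 2 were higher and 4 lower in positive cells, with a median log2 ratio of -0.33. The retinoic acid receptor RARB had plate means of 529, 227.3, 277.4, 69.4 and 212.6 CPM in positive cells and of 39.2, 283.1, 105.9, 294.2 and 244.4 CPM in negative cells. These ranges overlapped, and the order changed between plates, although 25 of 57 positive cells and 9 of 37 negative cells reached 10 CPM. The corepressor NCOR1 had a ratio of -0.45, and the receptor RXRA had 0.09. Of the listed targets of retinoic acid 6 were measured, with a median of -0.03 from the means over all plates. On single plates the median of these targets ran from 0.21 to 3.28. RARB, DHRS3 and STRA6 were higher. MEIS1 (-0.50), RARRES2 (-0.90) and NRIP1 (-2.16) were lower, without the same sign on every plate. STRA6 is in the supply list and the target list, so the 1 target past 2-fold is the same gene.

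Other aldehyde dehydrogenases gave no gene past 2-fold. Of 8 measured genes 7 had the higher mean in positive cells and the median log2 ratio was 1.16, but none kept its sign on every plate. The median ranged from -0.40 to 3.55 between plates, and it was -0.71 among cells at or above the median gene number. ALDH5A1, an enzyme of GABA breakdown, had the highest ratio at 1.56 with 12 of 57 and 4 of 37 cells and -5.57 among cells at or above the median gene number, and ALDH9A1 had the lowest at -0.36.

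The 75 genes past 2-fold and higher were at 10 CPM in a median of 42.1% of positive cells and 21.6% of negative cells. For these genes the 30% limit applied to the positive side only, so part of this gap was fixed by the way they were chosen. The highest genes past 2-fold that 50% of positive cells or more held at 10 CPM included ASB7, ASB9, SLC33A1, STRA6, MMP2, GALNT6, GSTA4L, BRD3, ENTPD3, AFAP1, FAM174A, DDA1 and CERS4, with log2 ratios from 3.60 down to 1.22. In all, 21 genes met both conditions. MMP2, a secreted protease of collagen and other matrix proteins, reached 10 CPM in 49 of 57 positive cells (85.96%, 74.2 to 93.7%) and 21 of 37 negative cells (56.8%, 39.5 to 72.9%). Its plate means were 1637, 610.1, 748, 838 and 519 CPM in positive cells and 163.05, 13.5, 477, 251.4 and 225.2 CPM in negative cells. Every positive mean lay above every negative mean. Over the plates MMP2 averaged 870.4 ± 446 and 225.97 ± 167.8 CPM (SD, n = 5 plates), a log2 ratio of 1.94, and it reached 10 CPM in 7 cells with the higher hair cell score.

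GSTA4L, by its symbol a relative of the glutathione transferase GSTA4, was also separated on all plates. GSTA4 conjugates reactive products of lipid oxidation. The plate means were 1038, 1473, 1331, 1138 and 1889 CPM in positive cells and 444, 43.8, 695, 480.4 and 459 CPM in negative cells. The lowest positive mean exceeded the highest negative mean. GSTA4L reached 10 CPM in 46 of 57 and 17 of 37 cells, and also in 89 cells with the higher hair cell score (48.9%). Its log2 ratio was 1.69, with 1.04 among cells below the median gene number and 1.66 among those at or above it.

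ASB7, a substrate adaptor of ubiquitin ligases, had the highest ratio of this group, 3.60, with an SD of 2.40 over the plates. Its plate means were 167.1, 139.6, 203.1, 289.97 and 1749 CPM in positive cells and 0, 0, 11.9, 88.6 and 105.3 CPM in negative cells, which did not overlap. It reached 10 CPM in 30 of 57 positive cells and 3 of 37 negative cells. In the RefSeq gene table of the GRCg7b assembly ASB7 is a close neighbour of ALDH1A3, with 1 long noncoding RNA gene between them, and the sources used here do not say whether counting used the strand or how reads between the genes were assigned. Among cells below the median gene number the ratio was -2.66, the opposite sign, and among cells at or above it 8.85. Only 2 plates entered each of these ratios. Below the median, positive cells at 4482 and 1250 CPM on plate 6, 865 CPM on plate 3 and 36.5 CPM on plate 2 were thus left out. The highest negative cell, at 1048 CPM on plate 6, was left out in the same way. On the plates used, the -2.66 rested on a positive cell at 108.8 CPM and negative cells at 107.4 and 797.7 CPM. ASB9, of the same adaptor family but not among the 5 nearest genes on either side of ALDH1A3 in that table, had a ratio of 2.09 with 31 of 57 and 9 of 37 cells.

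The remaining named genes on the higher side have varied known roles. SLC33A1 carries acetyl-CoA into the secretory pathway (ratio 2.05), GALNT6 starts O-linked glycosylation (1.84), BRD3 binds acetylated histones (1.62), and AFAP1 binds actin filaments (1.44). ENTPD3, which splits extracellular nucleotides, was at 10 CPM in 53 of 57 and 34 of 37 cells, with means of 311 ± 298.3 and 106.6 ± 79.95 CPM and medians over cells of 75.4 and 55.6 CPM. Its highest positive cell, on plate 6, had 3813 CPM, and without that cell the ratio fell from 1.54 to 0.60, no longer past 2-fold. Without their highest cell BRD3 (1.47) and FAM174A (1.22) lost the same sign on every plate. Among cells with the higher hair cell score, SLC33A1 reached 10 CPM in 22.5% and GALNT6 in 35.2%. BRD3 reached 10 CPM in 54.4% of them, AFAP1 in 63.2% and ENTPD3 in 76.9%.

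**Figure D3:**
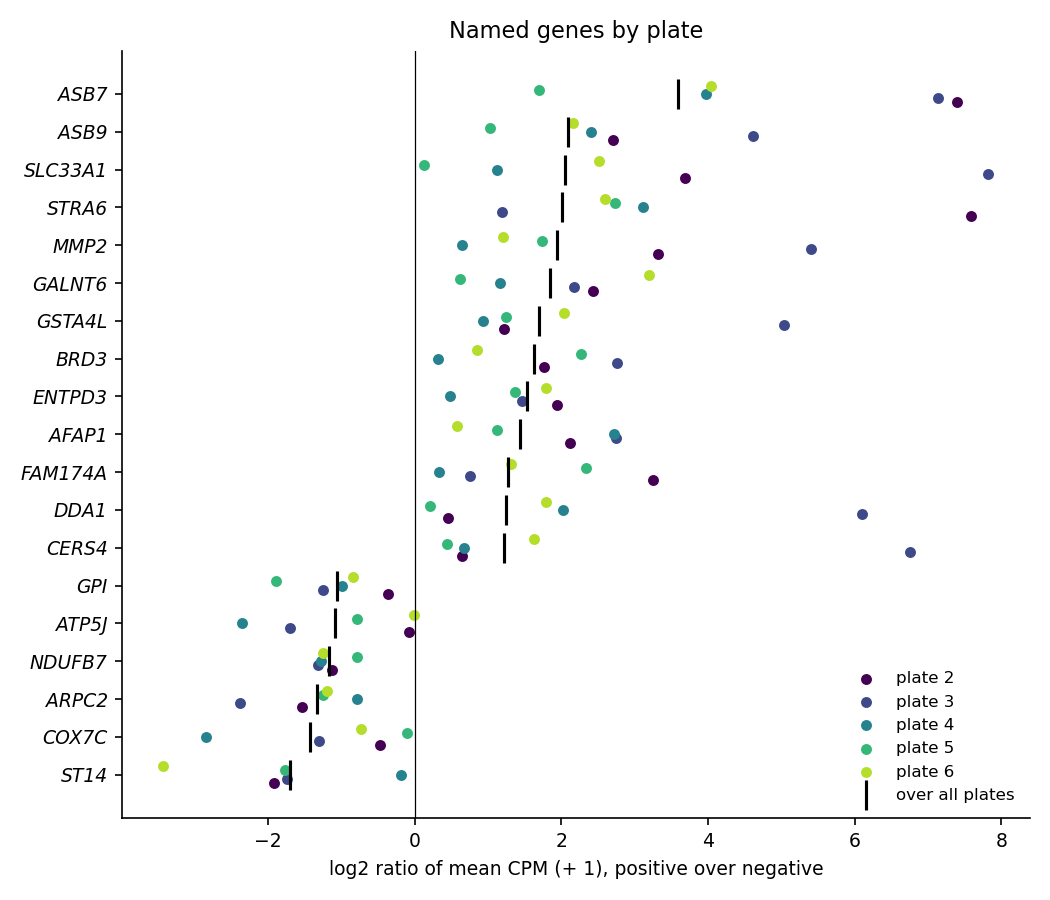
Points are the log2 ratios of positive over negative cells on each of the 5 plates for the highest genes reported here and the 6 lowest genes named by rule, and the black bar is the ratio over all plates. Every point of a gene lies on the same side of 0 by the way genes were chosen; plate 3, with 3 negative cells, gave the largest value for GSTA4L at 5.04 and for CERS4 at 6.76.

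A further group of genes past 2-fold was present in fewer than 50% of positive cells; these were chosen for mention after their values were seen. MARK3, a kinase of microtubule-associated proteins, reached 10 CPM in 23 of 57 positive cells and 1 of 37 negative cells, with a log2 ratio of 6.13. Its plate means were 6.76, 137.5, 86.2, 154.8 and 1007 CPM in positive cells and 0.835, 0, 0, 0 and 14.1 CPM in negative cells. The sides were close on plate 2 and far apart on the other 4 plates, but on plate 6 largely through 1 of its 5 positive cells. The highest MARK3 cell, on plate 6, had 4888 CPM, and without it the ratio was 4.42, still past 2-fold. HS3ST1, which sulfates heparan sulfate, was at 10 CPM in 24 of 57 and 3 of 37 cells (ratio 3.08), and DPP10, an accessory protein of potassium channels, in 19 of 57 and 4 of 37 cells (ratio 4.28).

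The lower side was smaller and was led by genes present on both sides at different levels. Only 6 genes met the same conditions in the lower direction: ST14, COX7C, ARPC2, NDUFB7, ATP5J and GPI. ST14, the membrane protease matriptase of epithelia, had plate means of 319, 313, 265.03, 185.1 and 41.04 CPM in positive cells and of 1206, 1052, 301, 632 and 451 CPM in negative cells. The ranges overlapped at plate 4. It was at 10 CPM in 26 of 57 and 21 of 37 cells, and the log2 ratio was -1.69. Without the 3 cells that stood apart the ratio was -1.77, but the sign was no longer the same on every plate. GPI, an enzyme of glycolysis, averaged 662 ± 296.5 CPM in positive and 1375 ± 547 CPM in negative cells, a ratio of -1.05, with 42 of 57 and 28 of 37 cells at 10 CPM. Without its highest negative cell the ratio was -0.97, under 2-fold.

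Of the other lower genes, 3 encode subunits of the respiratory chain or ATP synthase. COX7C had a ratio of -1.42, NDUFB7 -1.16 and ATP5J -1.08. Without the 3 cells that stood apart the ratios were -0.72, -0.76 and -0.93, and without the highest negative cell of each gene they were -0.70, -0.72 and -0.86, so none was then past 2-fold. They were the 3 members past 2-fold of 81 measured genes of nuclear oxidative phosphorylation, beside 0.337% of all measured genes past 2-fold and lower. Of the 81 genes 36 were higher and 45 lower, with a median of -0.08, close to the 0.08 of all genes. That median was 0.12 without the 3 cells that stood apart. By plate it was -1.02 on plate 4 and 0.06 to 0.37 on the others. ARPC2, a subunit of the actin-branching Arp2/3 complex, had a ratio of -1.33. In fewer cells, the acetyltransferase CREBBP (-2.75), the translation factor EIF3L (-2.53) and the ephrin receptor EPHA7 (-1.88) had positive plate means that all lay below the negative ones; these were chosen after their values were seen. CREBBP was at 10 CPM in 18 of 57 and 15 of 37 cells, so the shares overlapped while the means were 40.5 ± 56.9 and 277.1 ± 80.1 CPM.

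Among genes at 10 CPM in 30% or more of positive cells, those of highest rank correlation with ALDH1A3 over the 94 cells were LOC422894, HS3ST1, ASB7, MMP2 and STRA6. Spearman's rho was 0.45, 0.44, 0.44, 0.41 and 0.41, against a median of 0.05 and a highest value of 0.46 over all measured genes. The points share depth and gene number, and the values rest largely on the step from negative to positive cells. Within the 57 positive cells alone rho was 0.17 for ASB7, 0.12 for MMP2 and 0.18 for STRA6, and 0.49 for LOC422894. STRA6 reached 10 CPM in 16 of the 29 positive cells at or above their median of ALDH1A3 and in 14 of the 28 below it. MMP2 did so in 25 of 29 and 24 of 28, and ASB7 in 18 of 29 and 12 of 28. The share of cells with STRA6 or MMP2 thus differed little between positive cells of high and low ALDH1A3.

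**Figure D4:**
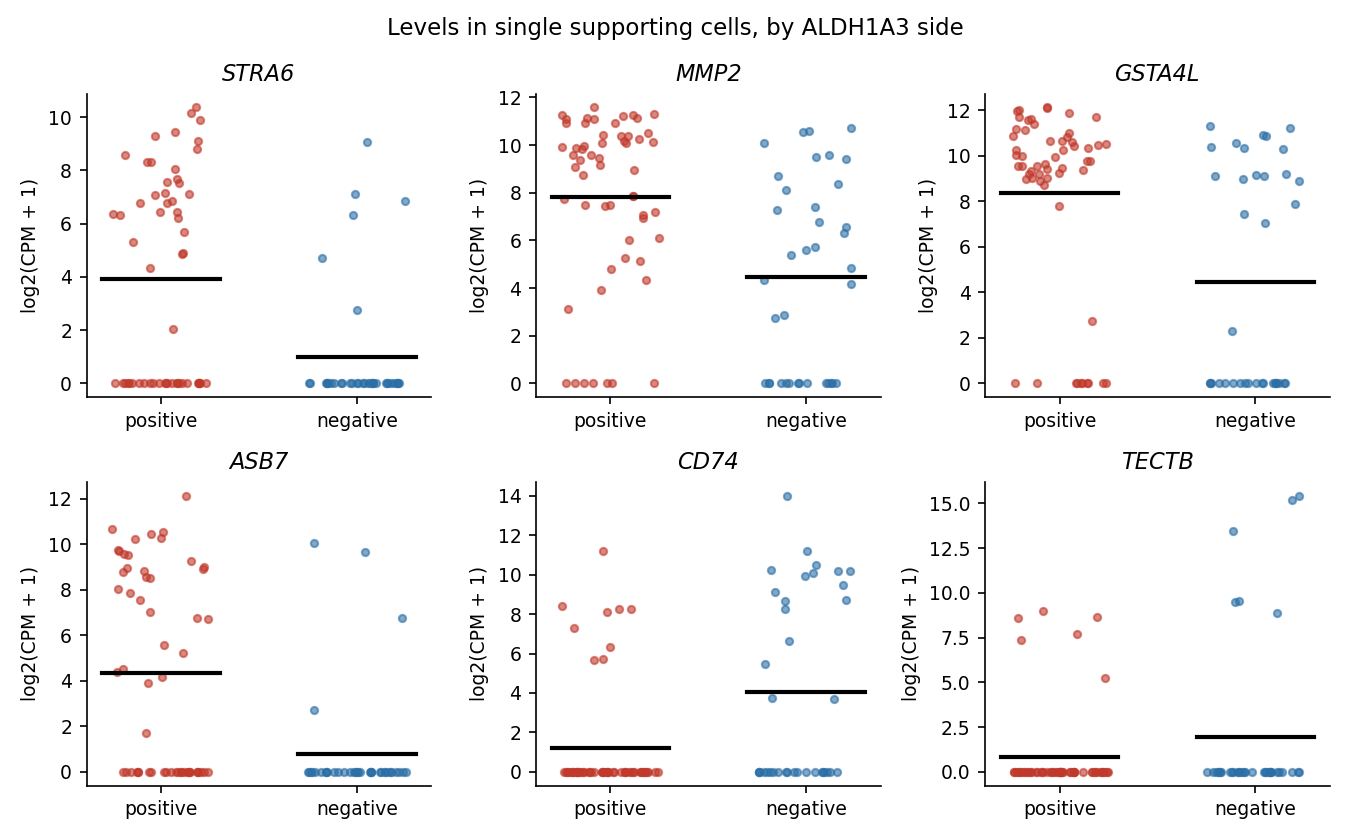
Each point is 1 supporting cell and each panel 1 gene, as log2(CPM + 1), with 57 positive cells in red, 37 negative cells in blue and the mean as a black bar. STRA6, MMP2, GSTA4L and ASB7 had more cells above 0 on the positive side, CD74 had more on the negative side, and TECTB was above 1000 CPM in 3 negative cells only.

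Other supporting cell genes gave 1 gene past 2-fold of 21 measured, beside 0.974% of all measured genes past 2-fold and higher. Of 21 measured markers besides those of the rule 14 were higher and 7 lower in positive cells, with a median log2 ratio of 0.24. The gene past 2-fold was SOX9, a transcription factor of otic supporting cells: it averaged 65.1 ± 25.8 CPM in positive and 28.6 ± 9.47 CPM in negative cells, a ratio of 1.16, with 40 of 57 and 19 of 37 cells at 10 CPM. Its ratio was 0.84 after thinning and 0.96 without its highest positive cell, under 2-fold both times. The related SOX10 (0.52), the otolithic membrane gene OTOG (0.49) and the peptidase GGT1 (0.87) had the higher mean on all 5 plates without reaching 2-fold. The matrix genes MATN4 (0.05) and SPARC (0.11) were nearly level, and DKK3, a secreted Wnt modulator, had -0.55.

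Notch pathway genes gave 11 higher and 8 lower of 19 measured, a median of 0.25 and none past 2-fold. HES5, a Notch target kept on in supporting cells, had plate means of 8116, 4892, 2605, 8512 and 5139.9 CPM in positive cells and of 1716, 1309, 3024, 4081 and 2932 CPM in negative cells. It was higher on 4 plates and slightly lower on plate 4, with a log2 ratio of 1.16. It was at 10 CPM in 46 of 57 and 24 of 37 cells. LFNG, which modifies Notch, had a ratio of 1.21 and was also higher on 4 of 5 plates, while NOTCH1 itself had 0.21. Other HES genes went the other way, HES1 with -1.79 and HES4 with -1.47, neither past 2-fold.

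Regional markers gave no gene past 2-fold. All 6 measured striolar markers had the lower mean in positive cells, beside 3641 of all 7704 measured genes. Their median was -0.9997 from the means over all plates, but on single plates it ran only from -0.72 to 0.29. Among cells below the median gene number it was 0.29. The largest difference was that of TECTB, a tectorin of the otolithic membrane and a striolar marker. It was above 1000 CPM in 3 negative cells, at 11251, 37861 and 43747 CPM, on 2 plates. It was above 1000 CPM in 0 of 57 positive cells, which allows a share of up to 5.26% by 3 counts and 6.27% by the exact 95% interval, and the highest positive cell had 511 CPM. At 10 CPM the counts were 6 of 57 and 6 of 37 cells. FRZB, a Wnt antagonist of the same list, was at 10 CPM in 53 of 57 and 30 of 37 cells with a ratio of -0.17, and OCM of that list had -0.12. Extrastriolar markers other than ALDH1A3 gave 2 higher and 3 lower of 5, with a median of -0.15 that ran from -2.65 to 3.36 between plates. ADAMTSL1 (0.79) and TECTA (0.57) were higher, and WNT5A (-0.15) and TNC (-1.09) were lower. BMP7, a secreted growth factor, had the lowest ratio, -2.40, with 3 of 57 and 7 of 37 cells.

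Signalling and growth lists gave 1 gene past 2-fold of 30 FGF and BMP genes and 1 of 14 cell cycle genes, beside 0.974% of all measured genes. FGF and BMP genes gave 19 higher and 11 lower of 30, with a median of 0.15. The pseudoreceptor BAMBI had a ratio of 2.61 with 18 of 57 and 5 of 37 cells. It was -2.996 among cells below the median gene number, and without the 3 cells that stood apart it was 2.36 with the sign not the same on every plate. Wnt genes gave 11 and 11 of 22 with a median of 0.08. Cell cycle genes gave 9 higher and 5 lower of 14 with a median of 0.82, and RRM1, a subunit of ribonucleotide reductase, was past 2-fold (1.25, 28 of 57 and 14 of 37 cells). CCND1 (1.09), CCND2 (1.45) and TYMS (1.17) were higher on 4 of 5 plates. At the median of the 14 genes, 14.91% of positive and 14.86% of negative cells reached 10 CPM. Listed cell cycle genes too rare to be measured included MKI67, in 1 positive and 0 negative cells. TOP2A and CDK1 were each in 1 positive and 1 negative cell. Developmental transcription factors had a median of 0.34 over 28 genes, with SOX9 past 2-fold.

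Immediate early and stress genes, which can respond to dissociation, gave 10 higher and 18 lower of 28 and a median of -0.17. EGR1, FOS and JUN had ratios of -0.10, 0.33 and 0.16. Matrix and otolithic membrane genes had a median of -0.09 over 26, gap junction and ion transport genes 0.39 over 14, and epithelial junction and cytoskeleton genes 0.02 over 32, none past 2-fold. Ribosomal protein genes had 37 higher and 36 lower of 73 and a median of 0.01.

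**Figure D5:**
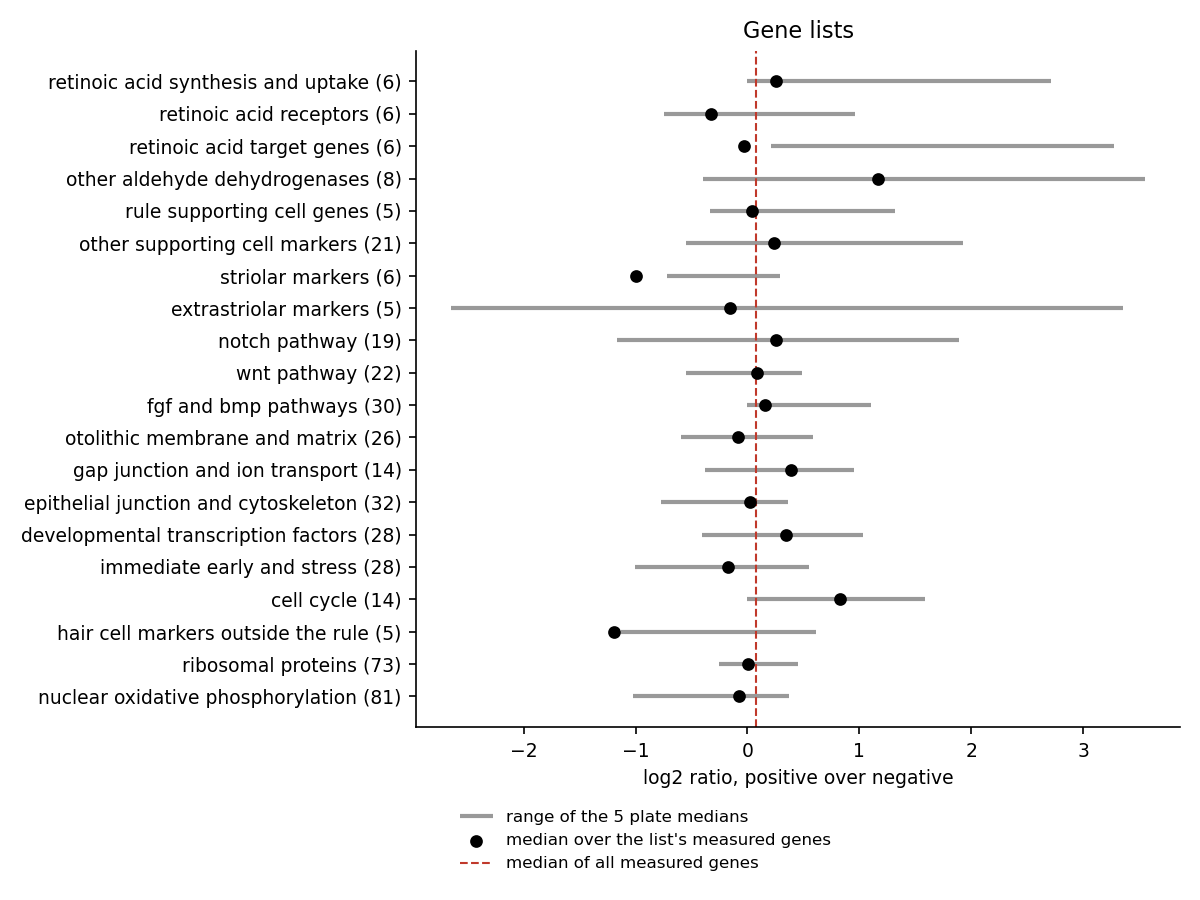
Black points are the median log2 ratio over the measured genes of each list with 5 or more of them, with their number in parentheses, and grey bars span the medians of the 5 plates. The dashed line is the median of all measured genes at 0.08; a black point can lie outside its bar because it is taken from ratios over all plates.

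Markers of other cell types were few, and some moved with single negative cells. Of 29 hair cell markers outside the rule 5 were measured, 1 higher and 4 lower, with a median of -1.19 that was -0.27 without the 3 cells that stood apart. POU4F3, a defining hair cell factor, was below 10 CPM in every supporting cell, and TMC2, KCNA10 and BAIAP2L2 were at 0. The summed hair cell markers ranged from 0 to 3769 CPM in positive and from 0 to 7725 CPM in negative cells. All 3 measured glial markers of 9 in the files had the lower mean in positive cells, with a median log2 ratio of -3.49. That median was 0.09 without the 3 cells, 1 of which held the MBP noted above. By share of cells, MBP was at 10 CPM in 17 of 57 positive and 7 of 37 negative cells, and PMP22 in 5 of 57 and 6 of 37. The summed glial markers ranged up to 1576 CPM in positive and 34797 CPM in negative cells, and S100B and NGFR were at 0.

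Among immune markers, CD74, the invariant chain of antigen presentation, was at 10 CPM in 9 of 57 positive cells (15.8%, 7.48 to 27.9%) and 17 of 37 negative cells (45.9%, 29.5 to 63.1%). Its plate means were 43.2, 296.7, 18.7, 16.05 and 54.4 CPM in positive cells and 204.04, 286.2, 2234, 56.7 and 560.5 CPM in negative cells. The negative side was higher on 4 plates and level on plate 3, so the gene was not past 2-fold; its log2 ratio was -2.95, and -1.95 without the 3 cells. Other listed immune genes were too rare to be measured. PTPRC, which marks blood cells, reached 10 CPM in 1 negative cell and 0 positive cells, as did C1QA, C1QC and CSF1R. LY86 went the other way, with 2 positive cells and 0 negative cells. Summed immune markers ranged up to 2362 CPM in positive and 19757 CPM in negative cells, and their part in the lower genes was not tested. Of 9 stromal markers none was measured. PECAM1, an endothelial adhesion gene, was past 2-fold and higher (1.60, 18 of 57 and 8 of 37 cells), with the ratio at -2.32 among cells below the median gene number, and without its highest positive cell the sign was not the same on every plate. The list of dark and nonsensory epithelial cell markers gave 1 higher and 3 lower of 4 measured, with 0 past 2-fold. The higher one was the potassium channel gene KCNQ1 (1.80). Of the lower ones ATP6V0A4, a proton pump subunit, was at 10 CPM in 1 of 57 and 4 of 37 cells, with 3 negative cells of 1 plate above 1000 CPM.

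The W-linked gene HINTW, carried by female chickens, was at 10 CPM in 39 of 57 positive and 24 of 37 negative cells. Its means were 499.8 ± 95.6 and 357 ± 114.01 CPM, a log2 ratio of 0.48 that was positive on every plate. The shares of cells with HINTW overlapped in their intervals, 54.8 to 80.1% and 47.5 to 79.8%. Of 4 measured W-linked genes 3 were higher and 1 lower in positive cells. Their median ratio was 5.03 on plate 4 and -0.37 to 0.15 on the other plates. Whether the sides differ in sex was not tested.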

How the data were processed

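Gene expression was measured in 300 single cells of chicken utricle epithelium. The deposited values are expected counts, estimated counts per gene that need not be whole; the submitters' processing notes list FastQC, STAR and RSEM. Versions, genome build, annotation and strand setting are not given in these sources. Each cell's file held 13643 gene rows; 12 symbols on more than 1 row were summed, leaving 13631, of which 12304 were found in the RefSeq table used for names and gene order only. Files of 0 cells were identical to another.

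CPM were each cell's counts divided by its total and multiplied by 1000000. Expected counts were rounded only for thinning. No count model was fitted, because the labels name no animal. The intervals are exact binomial at 95%; reads were amplified and carry no molecular identifiers, so they are not independent and intervals and limits from 0 counts (3 cells of the side) cover counting error only. SD are over the 5 plates, each with at least 3 cells of both sides. Each well received a single sorted cell, and doublets were not called. Sides were not compared by any test. The method was tested on simulated data with known changed genes and no differences between plates. That test set no limit on the share of unchanged genes called, and it does not cover differences between plates in the real cells.

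Named genes were the 14 highest and 14 lowest past 2-fold that 50% or more of the higher side's cells held at 10 CPM, all measured retinoic acid genes, the rule genes, up to 4 members past 2-fold of every other list, defining markers of other cell types and the 5 genes most like ALDH1A3. Some genes that this rule takes are not reported here. Other genes were named after their values were seen, among them CD74, TECTB, HES5, LFNG, MARK3, DPP10, CREBBP, EIF3L, EPHA7 and the aldehyde dehydrogenases. The members, the rule and the 31 gene lists were chosen with earlier results of these data known. The list of erythroid markers had 0 members in the files. Alternatives changed the cell filter, the ALDH1A3 boundary, the scaling, the pseudocount, the gene filter, the averaging and the plates. Python 3.11.15, numpy 2.4.6, pandas 2.3.3, scipy 1.17.1 and matplotlib 3.10.9 were used.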

Additional observations from a re-analysis of the deposited data

Results flagged for a closer look

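Of 57 values with 1 number for each of 5 plates, 8 had a plate far from the other 4 by Dixon's ratio above 0.71. For independent normal values chance alone gives about 1 in 20. The values here share cells and genes, and the genes past 2-fold were chosen for equal sign on every plate. The count of 8 therefore cannot be set against that rate. The median number of detected genes in negative cells was 2620 on plate 2 and 1243 to 1628 on the other plates. The log2 ratio of CERS4 was 6.76 on plate 3 and 0.44 to 1.63 elsewhere, that of GSTA4L 5.04 on plate 3 and 0.94 to 2.04 elsewhere, and that of EPHA7 -6.60 on plate 3 and -2.05 to -0.55 elsewhere; plate 3 had 3 negative cells. The ratio of MARK3 was 2.08 on plate 2 and 6.06 to 7.28 elsewhere. Plate 4 stood apart in 3 list medians: 1.10 for FGF and BMP genes, 5.03 for W-linked genes and -1.02 for nuclear oxidative phosphorylation. Outside the comparison, ALDH1A3 reached 10 CPM in 10 cells with the higher hair cell score (5.49%), found on all 5 plates, and in 9 of the 19 cells with the higher supporting score among the 24 removed by the filter.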

How the results depend on the processing

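The shares of measured genes past 2-fold, 0.974% higher and 0.337% lower, depended on the cells and plates used. With at least 1500 detected genes per cell they were 3.41 and 1.37%, and the median of detected genes, positive minus negative, changed from 558 to -53. With all cells averaged and no plates they were 2.62 and 1.13%, with the difference of mean log2(CPM + 1) 1.83% were higher, and with plates of at least 5 cells on both sides 0.623% were lower. With genes measured in at least 20 cells they were 2.63 and 0.888%, since 74 and 25 calls stood among fewer genes tested. Leaving out a plate gave 1.43 to 2.20% higher and 0.653 to 1.00% lower; without plate 2 they were 1.97 and 0.699%, without plate 3 they were 1.43 and 0.653%, without plate 4 they were 2.20 and 1.00%, without plate 5 they were 2.16 and 0.854%, and without plate 6 they were 1.96 and 0.775%. In cells below the median gene number they were 7.26 and 8.19%, and in cells at or above it 11.2 and 9.05%, with 2 plates used in each. Fewer plates make equal sign on every plate easier to meet by construction. In cells below the median gene number ASB7 (-2.66), DDA1 (-0.039), BAMBI (-2.996) and PECAM1 (-2.32) changed sign, and in cells at or above it CDK5RAP2 (1.28) did. The genes past 2-fold also changed where the shares moved little. With the ALDH1A3 boundary at 100 CPM the shares were 1.10 and 0.325%, but only 45 of the 75 higher and 13 of the 26 lower genes remained. With at least 500 detected genes per cell they were 0.799 and 0.266%, and 41 and 9 genes remained. Of the genes past 2-fold, GSTA4L and TMEM269 stayed past in all 20 alternatives counted. In at least 19 of them 9 higher and 0 lower genes stayed past, among them ASB7, MARK3, MMP2, RRM1 and STRA6. Without the cell of the highest value, an alternative chosen after seeing the data, 24 higher and 10 lower genes were no longer past 2-fold, among them BRD3, ENTPD3, FAM174A, PECAM1, SOX9, ATP5J, COX7C, GPI and NDUFB7. No value here tells the calls from the sampling of 57 and 37 cells, and the animals behind the cells were not known. No paired analysis was possible because the cells form 1 labelled group.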
